A study of Mus musculus with 24 samples.

Results

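The 9 genes of insulin, FOXO and mTOR signalling described here were followed through the pancreas of 24 mice. They are Insr and Igf1r, the receptors; Irs1, Irs2 and Pik3r1, the proteins that carry the signal from the receptors to phosphoinositide 3-kinase (PI3K); Foxo1 and Foxo3, the transcription factors that the pathway restrains; and Ddit4 and Sesn1, which restrain the growth-promoting mTOR complex. They were taken by symbol from the gene table, as 9 of its 51912 genes, and all 9 had counts high enough for testing. Transcripts of whole pancreas were measured by RNA-seq in C57Bl/6J mice, an inbred laboratory strain, for which the labels name no altered gene. The 8 groups of 3 mice were disrupted late males (day 9), normal late males (day 9), disrupted late females (day 8), normal late females (day 8), disrupted early males, normal early males, disrupted early females and normal early females (the early groups all on day 1). Disrupted stands for circadian disrupted and normal for normal circadian mice. All were taken at clock hour 8, counted from lights on. The series title speaks of re-entrainment, the return of a tissue to a given light schedule. The sources used here give neither the means of disruption, nor the age of the mice, nor when day 1 fell. Late males and late females differ in day as well as sex, so sex and day cannot be told apart at the late time point.

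When insulin or an insulin-like growth factor binds its receptor, the receptor phosphorylates IRS proteins, which recruit PI3K, and the kinase AKT is then switched on. AKT keeps FOXO factors out of the nucleus and, through the TSC complex, allows mTOR complex 1 to drive protein synthesis. When insulin falls, as in fasting, FOXO factors enter the nucleus and raise genes of fuel use and stress resistance, while sestrins and the DDIT4 protein (REDD1) hold mTOR complex 1 back. In the pancreas, insulin from the islets reaches the enzyme-secreting acinar cells at high local concentration, and mTOR signalling supports the making of digestive enzymes.

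Depth was 31325543 to 62390408 counts per mouse. Markers of acinar cells were present in every mouse, their 5 genes summing to between 196285 and 252220 CPM (counts scaled by library size), so the defining markers of the labelled tissue were there. The 6 islet markers summed to 221 to 570 CPM. Lymphocyte markers, 8 genes, varied most between mice, and exceeded 50 CPM in 3 of them: disrupted early female 1 (106 CPM), disrupted late male 1 (58.6 CPM) and normal early female 3 (51.8 CPM). Whole tissue was measured, so fewer cells of a type and less RNA per cell cannot be told apart.

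Per kilobase of exon, Sesn1 stood highest, with a mean of 6.27 CPM per kb over the 24 mice, followed by Ddit4 at 5.93, Foxo3 at 2.60, Pik3r1 at 1.97, Insr at 1.45, Foxo1 at 0.901, Igf1r at 0.509, Irs2 at 0.471 and Irs1 at 0.158 CPM per kb. Insr was above Foxo1 in 24 of 24 mice, and these were the only neighbours in that order whose ranges did not overlap. Sesn1 was above Ddit4 in 13 of 24 mice. The genes also differed in how much they varied: the coefficient of variation over mice was 9.11% for Insr and 82.1% for Ddit4, whose highest level was 9.71 times its lowest. Irs1 rested on the fewest reads, with 27 to 93 counts per mouse, and Irs2 on 47 to 170. The exons of 3 genes overlap a gene annotated on the opposite strand: 30.9% of the exonic length of Irs1 lies over Gm9747, 7.78% of that of Foxo1 over Gm20402 and 2.56% of that of Irs2 over 9530052E02Rik. No source used here states the strand setting of the counting, so reads there cannot be assigned to one gene of the pair.

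**Figure D1:**
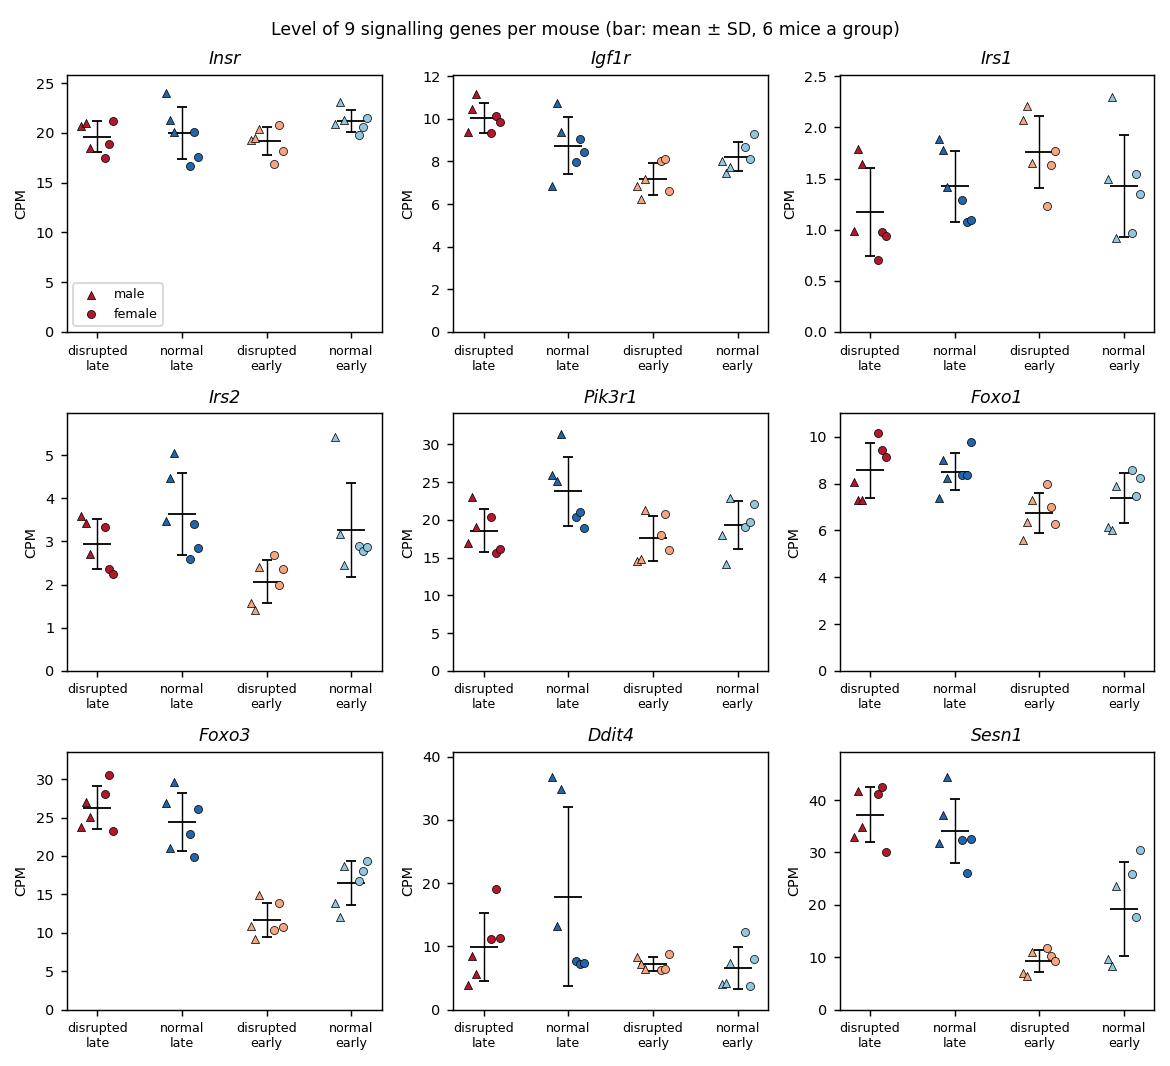
Level of each of the 9 genes in CPM (vertical axis, from 0) in each mouse, by condition and time point (horizontal axis); triangles are males, circles females, and bars show mean ± SD of 6 mice. Sesn1 and Foxo3 are lowest in disrupted early mice, Insr stays between 16.7 and 24.0 CPM throughout, and the 2 highest Ddit4 values are those of normal late males 1 and 3.

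Circadian disrupted mice were first set against normal mice at the early time point. Sesn1, Foxo3 and Irs2 were lower in disrupted pancreas, and none of the 9 genes was higher. These 3 calls compare with a background of 4.56% of the 14000 genes tested. The 9 genes were chosen with earlier results of these data known. Setting them beside all genes, here and in the comparisons below, is therefore only a description. The median log2 fold change of the 9 genes was -0.14, against 0.00 for all genes tested.

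Sesn1 encodes sestrin 1, a leucine-binding protein that inhibits mTOR complex 1 and is a known target of p53 and of FOXO factors. Its level in disrupted early mice was 6.37 CPM in the lowest, 9.73 CPM at the median and 11.7 CPM in the highest mouse, against 8.42, 20.7 and 30.4 CPM in normal early mice. The disrupted mice lay close together, while normal early males 1 and 2, at 9.61 and 8.42 CPM, fell among them and the other 4 normal mice lay at 17.8 CPM or above. The log2 fold change was -0.999 ± 0.230 (SE; adjusted p = 0.0188, edgeR quasi-likelihood test with Benjamini-Hochberg adjustment over all genes).

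Foxo3, a FOXO factor that induces genes of autophagy and muscle atrophy, had a lowest, median and highest level of 9.18, 10.8 and 14.9 CPM in disrupted early mice and of 12.1, 17.4 and 19.4 CPM in normal early mice. Normal early males 2 and 1, at 12.1 and 13.9 CPM, fell within the disrupted range. The log2 fold change was -0.49 ± 0.13 (adjusted p = 0.0358). Irs2, the insulin receptor substrate whose gene FOXO factors are known to induce in liver, had 1.40, 2.17 and 2.68 CPM as the lowest, median and highest level in disrupted early mice and 2.45, 2.88 and 5.43 CPM in normal early mice. Normal early male 1 alone held the top value, the next normal mouse being at 3.17 CPM, and normal early male 3, at 2.45 CPM, lay within the disrupted range. The log2 fold change of Irs2 was -0.64 ± 0.17 (adjusted p = 0.0338).

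The receptors differed less. Insr averaged 19.2 ± 1.44 CPM in disrupted early and 21.2 ± 1.11 CPM in normal early mice (SD, n = 6 each), a log2 fold change of -0.14 ± 0.06 that missed the threshold (adjusted p = 0.241). Igf1r averaged 7.17 ± 0.765 CPM in disrupted early and 8.23 ± 0.668 CPM in normal early mice, with a log2 fold change of -0.19 ± 0.08 (adjusted p = 0.216). Both had an unadjusted p under 0.05, as did 5 of the 9 genes in all and 2482 of the 14000 genes tested. Irs1, Pik3r1, Foxo1 and Ddit4 had log2 fold changes of 0.29, -0.14, -0.12 and 0.16, with adjusted p between 0.44 and 0.843.

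The early calls rested on few mice. Foxo3 and Irs2 lost theirs without normal early female 1, 2 or 3 or disrupted early male 1 or 2. Foxo3 also lost its call without normal early male 3 or disrupted early female 1 or 3 (adjusted p 0.0517 to 0.0998 over the mice named for it), and Irs2 without normal early male 1 or disrupted early female 2 or 3 (adjusted p 0.0603 to 0.105). Without normal early male 1 the log2 fold change of Irs2 was -0.45. Of single mice, only disrupted early male 1 ended the call of Sesn1 when left out (adjusted p = 0.0531). Lymphocyte markers moved with the same contrast, with a median log2 fold change of 1.40 and 1 of 7 markers called, and their sum was 9.86 to 106 CPM in disrupted early mice and 3.83 to 51.8 CPM in normal early mice. Endothelial markers, with 1 of 5 called higher (median 0.20) and a sum of 38.6 to 47.6 CPM in disrupted early and 35.8 to 40.8 CPM in normal early mice, moved with it too. Of the duct markers 1 of 5 was called higher (median 0.15), with sums that overlapped, at 107 to 149.9 CPM in disrupted early and 107 to 151 CPM in normal early mice. Over the 24 mice the endothelial score had r = -0.70 with Foxo3, -0.68 with Sesn1 and -0.60 with Irs2, and within groups -0.35, -0.19 and 0.13. The lymphocyte score had -0.41, -0.32 and -0.29 with these genes in the same order, and within groups -0.13, 0.08 and 0.27. The part of endothelial or duct cells in the early calls was not tested. Without the 3 mice rich in lymphocyte markers, no member passed: Sesn1 stood at -0.96 (adjusted p = 0.0886), Foxo3 at -0.42 (0.197) and Irs2 at -0.69 (0.0861). Fitted on the early mice alone, adjusted p was 0.123 for Sesn1, 0.0894 for Foxo3 and 0.0855 for Irs2. With adipocyte and lymphocyte marker scores in the fit the adjusted p was 0.0726 for Sesn1, 0.258 for Foxo3 and 0.0806 for Irs2.

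Sesn1 and Foxo3 moved together across the mice and Irs1 and Irs2 are the paired adaptors, so the promoters of these 4 genes are shown, from RefSeq on GRCm38.p6, 250 bases before to 50 bases after the annotated start and printed on the strand of the gene. Capitals mark the FOXO binding element TGTTTAC or the E-box CACGTG, the letters bound by CLOCK and BMAL1. The Sesn1 window is chr10:41810324-41810623 on the plus strand, that of Foxo3 chr10:42276646-42276945 on the minus strand, that of Irs2 chr8:11008880-11009179 on the minus strand and that of Irs1 chr1:82291390-82291689 on the minus strand.
Sesn1: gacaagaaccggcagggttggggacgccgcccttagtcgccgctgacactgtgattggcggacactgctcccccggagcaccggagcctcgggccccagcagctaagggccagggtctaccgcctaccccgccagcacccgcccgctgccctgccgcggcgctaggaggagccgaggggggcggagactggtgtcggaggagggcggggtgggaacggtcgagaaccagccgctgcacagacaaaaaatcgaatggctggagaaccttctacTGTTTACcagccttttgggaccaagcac
Foxo3: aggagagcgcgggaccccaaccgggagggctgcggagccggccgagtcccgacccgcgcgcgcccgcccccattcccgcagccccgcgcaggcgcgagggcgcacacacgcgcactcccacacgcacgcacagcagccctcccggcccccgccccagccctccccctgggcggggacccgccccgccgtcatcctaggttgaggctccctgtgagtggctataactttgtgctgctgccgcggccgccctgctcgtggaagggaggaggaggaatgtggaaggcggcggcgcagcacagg
Irs2: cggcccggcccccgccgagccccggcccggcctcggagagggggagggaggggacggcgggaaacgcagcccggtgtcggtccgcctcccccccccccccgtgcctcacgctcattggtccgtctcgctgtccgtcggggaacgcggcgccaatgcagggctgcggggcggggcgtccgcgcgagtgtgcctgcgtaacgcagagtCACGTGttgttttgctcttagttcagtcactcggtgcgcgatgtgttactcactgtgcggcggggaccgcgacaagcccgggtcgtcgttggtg
Irs1: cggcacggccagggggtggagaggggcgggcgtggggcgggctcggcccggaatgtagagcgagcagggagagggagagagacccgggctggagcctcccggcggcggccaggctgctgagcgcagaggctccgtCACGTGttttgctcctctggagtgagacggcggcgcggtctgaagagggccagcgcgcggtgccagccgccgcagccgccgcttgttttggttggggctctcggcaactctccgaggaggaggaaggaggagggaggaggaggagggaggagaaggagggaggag
The FOXO binding element of Sesn1 begins at base 23 after its start, and 3.65% of all 32851 promoter windows in the table hold it on either strand. An E-box lies 44 bases before the start in Irs2 and 115 bases before the start in Irs1, and 7.15% of all windows hold one. The table held 10 windows for 8 of the 9 genes, with 2 each for Sesn1 and Pik3r1. The Sesn1 window shown is the one that holds the FOXO element, and TGTTTAC was not found in the other, at chr10:41887189-41887488 on the plus strand. In these 10, the glucocorticoid-receptor motif AGAACA, in 19.0% of all windows, and the D-box TTATGTAA, in 0.938%, were not found on either strand. The E-box variant CACGTT was found in the Ddit4 window, beginning 188 bases before the start, against 4.68% of all windows, and the short cyclic AMP motif TGACG in 4 of the 10, against 20.8%. These are matches of letters and say nothing of binding.

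Sesn1 and Foxo3 are also neighbours. Sesn1 lies on chromosome 10 from 41809935 to 41908424 on the plus strand and Foxo3 from 42181841 to 42276755 on the minus strand (GRCm38), with 273416 bases between them. The 3 genes annotated in that gap had too few counts for testing. This was looked up after the values were seen.

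At the late time point, disrupted pancreas was again set against normal pancreas. None of the 9 genes passed edgeR's test, against a background of 1.35% of all genes, and none with DESeq2. An unadjusted p under 0.05 was found for 3 of them (Igf1r, Pik3r1 and Ddit4) and for 2050 of the 14000 genes tested. The median log2 fold change was -0.02 for the 9 genes and 0.00 for all genes. Pik3r1, the regulatory subunit of PI3K, averaged 18.6 ± 2.86 CPM in disrupted late and 23.8 ± 4.60 CPM in normal late mice, with a log2 fold change of -0.34 ± 0.12 (adjusted p = 0.175). Igf1r averaged 10.1 ± 0.694 CPM in disrupted late and 8.75 ± 1.34 CPM in normal late mice, with a log2 fold change of 0.20 ± 0.08 (adjusted p = 0.247). For both genes the groups overlapped. Ddit4, split by sex further on, stood at -0.68 ± 0.30 (adjusted p = 0.3), and Insr, Irs1 and Foxo1 at -0.02, -0.30 and 0.00. The 3 genes called early stood at 0.13 ± 0.22 for Sesn1 (adjusted p = 0.824), 0.11 ± 0.13 for Foxo3 (adjusted p = 0.734) and -0.29 ± 0.17 for Irs2 (adjusted p = 0.425). The 95% interval for Sesn1 ran from -0.33 to 0.59 and that for Foxo3 from -0.15 to 0.37, so differences of the early size lay outside both. Lymphocyte markers, none of 7 called, had a median log2 fold change of 2.62 here.

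Whether the effect of disruption changed between the time points was tested directly. Sesn1 was called, with a condition effect higher by 1.13 ± 0.32 at the late than at the early time point (log2; adjusted p = 0.0499). It was 1 of the 9 genes, against a background of 4.77%. Igf1r, at 0.39 ± 0.12 (adjusted p = 0.053), and Foxo3, at 0.60 ± 0.18 (adjusted p = 0.0636), missed the threshold. Irs2, at 0.35 ± 0.24 (adjusted p = 0.501), did not pass, so its early call is not shown to be particular to that time. Irs1, at -0.59, Ddit4, at -0.84, Pik3r1, at -0.21, and Insr and Foxo1, both at 0.12, had adjusted p of 0.228 or more. The Sesn1 call lay at the threshold itself. It held without normal early male 1, 2 or 3, normal early female 2 or disrupted early male 3, and was lost without any other single mouse (adjusted p 0.0506 to 0.0893) and without the 3 lymphocyte-rich mice (1.12, adjusted p = 0.132). It was also lost with upper quartile scaling (adjusted p = 0.0512), without the low-count filter (0.075) and with marker scores as covariates (0.0693), and in these last 2 fits Igf1r was the gene called instead (adjusted p = 0.0161 and 0.0469). Of 5 duct markers, 2 were called lower in the same contrast (median -0.21). Markers of the other cell types had no call. Their medians were 1.02 for lymphocyte, 0.50 for adipocyte, 0.22 for islet, -0.20 for endothelial, -0.11 for stellate and fibroblast and -0.10 for macrophage markers. Those of muscle and acinar markers were -0.03 and -0.01. The part of these cell types was not tested beyond the fits given.

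**Figure D2:**
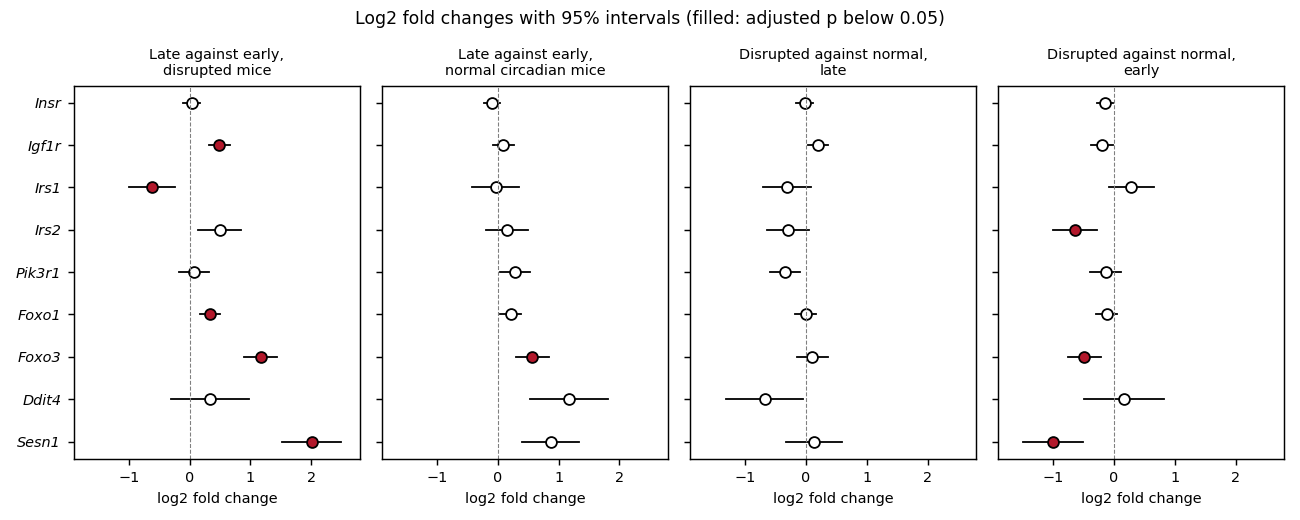
Log2 fold change (horizontal axis) of each of the 9 genes in 4 comparisons, with 95% intervals from the fit to all 24 mice; filled points have an adjusted p below 0.05. Sesn1 and Foxo3 are filled both for late against early disrupted mice, at 2.01 and 1.17, and for disrupted against normal early mice, at -0.999 and -0.49, and no point is filled for disrupted against normal late mice.

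Within disrupted mice, late pancreas was set against early pancreas, which asks how the genes differ as days pass after the first. This was the comparison with the most members called: Sesn1, Foxo3, Igf1r and Foxo1 were higher late and Irs1 was lower. These 5 of 9 compare with a background of 13.9% of all genes, and the median log2 fold change was 0.33 for the 9 genes and -0.01 for all genes. Here too the 9 genes had been chosen with earlier results known, so this comparison is a description. The early disrupted mice are the same animals as in the early condition effect above.

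Sesn1 had 30.1 CPM in the lowest, 38.1 CPM at the median and 42.4 CPM in the highest disrupted late mouse, against 6.37, 9.73 and 11.7 CPM in disrupted early mice. The groups did not overlap, and the lowest late mouse lay well above the highest early one. The level was 4.02-fold higher late (log2 fold change 2.01 ± 0.23, adjusted p = 1.62e-05). Foxo3 had 23.3, 26.1 and 30.5 CPM in disrupted late mice, in the same order, and 9.18, 10.8 and 14.9 CPM in disrupted early mice, again without overlap. For neither gene is the share of all genes without overlap given here. Foxo3 was among the genes called. Its level was 2.24-fold higher late (log2 fold change 1.17 ± 0.13, adjusted p = 3.83e-06).

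Igf1r, the receptor for insulin-like growth factor 1, had 9.32, 9.99 and 11.2 CPM as the lowest, median and highest level in disrupted late mice and 6.26, 7.00 and 8.14 CPM in disrupted early mice. These groups did not overlap either (the share of all genes without overlap is not given here), and the log2 fold change was 0.49 ± 0.08 (adjusted p = 0.00021). Foxo1, the FOXO factor best known for driving glucose production in liver, had 7.32, 8.60 and 10.2 CPM in disrupted late and 5.60, 6.69 and 7.97 CPM in disrupted early mice. Disrupted late males 2 and 3, both at 7.32 CPM, lay within the early range, and the log2 fold change was 0.33 ± 0.08 (adjusted p = 0.00694). The calls of Sesn1, Foxo3, Igf1r and Foxo1 held when any 1 of the 24 mice was left out and when the 3 lymphocyte-rich mice were left out. Sesn1, Foxo3 and Igf1r were also called within each sex. Foxo1 was called within females (0.43 ± 0.11, adjusted p = 0.0163) but not within males (0.23 ± 0.12, adjusted p = 0.274).

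Irs1, the substrate that carries much of the insulin signal in muscle and fat, went the other way. It had 0.701, 0.984 and 1.78 CPM in disrupted late mice and 1.23, 1.71 and 2.2 CPM in disrupted early mice. Disrupted late males 2 and 3, at 1.78 and 1.64 CPM, lay within the early range, and the other 4 late mice below it. The log2 fold change was -0.62 ± 0.18 (adjusted p = 0.0248), a ratio of 0.650. The call was lost without disrupted late male 1, disrupted late female 1, disrupted early male 2 or disrupted early female 3 (adjusted p 0.0577 to 0.0751), and without the lymphocyte-rich mice (adjusted p = 0.0591). Irs2 averaged 2.94 ± 0.574 CPM in disrupted late and 2.07 ± 0.504 CPM in disrupted early mice, a log2 fold change of 0.49 ± 0.17 that missed the threshold (adjusted p = 0.0584) but passed with DESeq2 (0.0414) and with the groups compared alone (0.0385). Insr, Pik3r1 and Ddit4 stood at 0.03, 0.07 and 0.33, with adjusted p of 0.791, 0.742 and 0.524. Markers of other cells moved with this contrast too, the medians being -0.68 for 7 lymphocyte markers, -0.71 for 8 adipocyte markers, -0.21 for 5 endothelial markers, -0.29 for 6 stellate and fibroblast markers, -0.37 for 5 macrophage markers and -0.07 for 5 duct markers. Of these, 2 duct markers, 1 endothelial and 1 stellate or fibroblast marker were called, all lower late. The medians were 0.30 for 6 islet markers, 0.30 for 4 muscle markers and 0.02 for 5 acinar markers, with none called. The part of these cell types in the results was not tested beyond the fits given. With adipocyte and lymphocyte scores as covariates, 5 members were again called.

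In normal mice, late pancreas differed from early pancreas in fewer genes. Foxo3 alone among the 9 was called, against a background of 0.843%, and the median log2 fold change of the 9 was 0.21. Foxo3 had 19.8, 24.5 and 29.6 CPM as the lowest, median and highest level in normal late mice and 12.1, 17.4 and 19.4 CPM in normal early mice, without overlap (the share of all genes without overlap is not given here). Its log2 fold change was 0.57 ± 0.13 (adjusted p = 0.0405). Within males it was 0.79 ± 0.18 (adjusted p = 0.0268) and within females 0.34 ± 0.18 (adjusted p = 0.622), and the difference between the sexes was not tested. The background rested on few mice as well: the 118 genes behind it became 38 without normal late male 3, 39 without normal early male 1 and 45 without normal early male 2. The call of Foxo3 was lost without any normal early female, normal early male 1 or 2, normal late male 1 or 3, normal late female 1 or 3, disrupted early male 1, disrupted early female 3, disrupted late male 3 or disrupted late female 1 (adjusted p 0.0503 to 0.112), and without the lymphocyte-rich mice (adjusted p = 0.0805). Marker medians here were -1.70 for lymphocyte, -0.98 for adipocyte, -0.28 for macrophage, -0.18 for stellate and fibroblast, -0.01 for endothelial and -0.02 for acinar markers. They were 0.35 for muscle, 0.10 for islet and 0.08 for duct markers, and no marker was called. The part of these cell types in the call was not tested beyond the fits given.

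Sesn1 had 26.1, 32.4 and 44.4 CPM in normal late mice and 8.42, 20.7 and 30.4 CPM in normal early mice, with a log2 fold change of 0.87 ± 0.22 that missed the threshold (adjusted p = 0.0767). Within males it was 1.45 ± 0.32 (adjusted p = 0.0268) and within females 0.30 ± 0.31 (adjusted p = 0.861), and the difference between the sexes was not tested. Leaving out normal early male 3, the one high male, gave 1.18 (adjusted p = 0.00312). Ddit4 averaged 17.9 ± 14.1 CPM in normal late and 6.62 ± 3.30 CPM in normal early mice, with a log2 fold change of 1.17 ± 0.30 (adjusted p = 0.0855). Insr, Igf1r, Irs1, Irs2, Pik3r1 and Foxo1 stood between -0.09 for Insr and 0.28 for Pik3r1, with adjusted p of 0.239 or more.

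Ddit4, the REDD1 gene, is a stress and glucocorticoid-induced inhibitor of mTOR complex 1. At the late time point its values were split into males, taken on day 9, and females, taken on day 8. Sex and day cannot be told apart there. In males it had 3.93, 8.41 and 5.68 CPM in the 3 disrupted late mice and 36.7, 13.2 and 34.9 CPM in the 3 normal late mice, so that every disrupted male lay below every normal one. In females the order was the opposite, with 11.1, 19.0 and 11.3 CPM in disrupted late and 7.75, 7.16 and 7.34 CPM in normal late mice. With 3 mice a group such separation is weak, and the share of all genes showing it is not given here. The condition effect was -2.24 ± 0.43 in males (adjusted p = 0.0231) and 0.89 ± 0.42 in females (adjusted p = 0.468). The difference, males minus females, was -3.13 ± 0.60 and did not pass edgeR's test (adjusted p = 0.0927); it did with DESeq2 (adjusted p = 0.000187) and without normal late male 2, the lowest of the normal males (-3.47, adjusted p = 0.00587). In this comparison 0.0286% of all genes were called and none of the 9, with 1 at an unadjusted p under 0.05 and 1 called by DESeq2, in both cases Ddit4. Of the 14000 genes tested, 904 had an unadjusted p under 0.05. Fos, an immediate early gene that follows acute stimulation, was at 7.99, 1.19 and 3.02 CPM in normal late males 1, 2 and 3 and at most 0.655 CPM in every other mouse; its part in the Ddit4 level was not tested.

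At the early time point the condition effect in males minus that in females was called for none of the 9 genes, and 0% of all genes passed edgeR's test or DESeq2's, while 783 of the 14000 had an unadjusted p under 0.05. Irs2 was the 1 member with an unadjusted p under 0.05, with a difference of -0.72 ± 0.34 (adjusted p = 0.882). Its condition effect was -0.997 ± 0.245 in males and -0.28 ± 0.24 in females. Males against females over both conditions on day 1 also gave no member, against a background of 0.893%, and none by DESeq2. Sesn1, at -0.58 ± 0.23 (adjusted p = 0.228), and Foxo1, at -0.20 ± 0.08 (adjusted p = 0.229), had an unadjusted p under 0.05 there, as did 2253 of the 14000 genes. Without normal early male 3, Sesn1 was lower in males by -0.89 on the log2 scale (adjusted p = 0.0135).

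**Figure D3:**
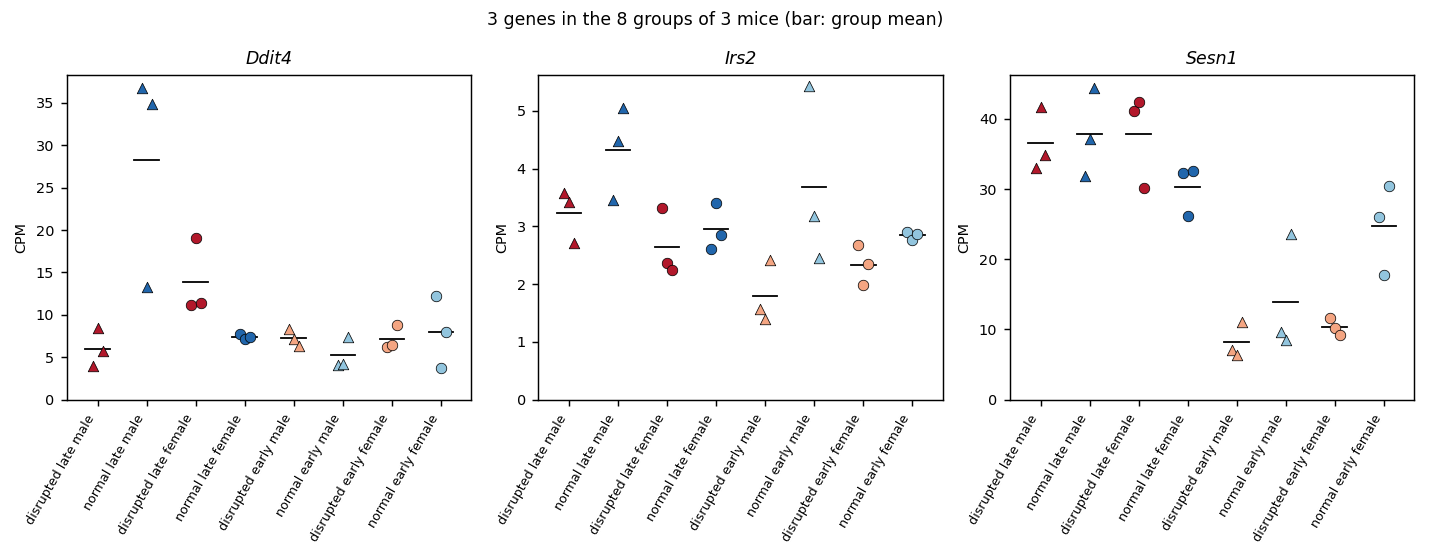
Level in CPM (vertical axis, from 0) of Ddit4, Irs2 and Sesn1 in each mouse of the 8 groups of 3 (horizontal axis), with the group mean as a bar. Disrupted late males lie below normal late males for Ddit4, disrupted late females above normal late females, and normal early male 1 stands alone at 5.43 CPM for Irs2.

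Among the 36 pairs of the 9 genes, Pearson's r of log2 CPM over the 24 mice ran from -0.79 to 0.95, with a median of 0.33. Correlations over mice are given as descriptions, since the mice share groups and each level shares its library's scaling. Foxo3 and Sesn1 had the highest value, r = 0.95 and Spearman's rho = 0.94. It was 0.93 over the 22 mice left without the 2 farthest in Sesn1, and 0.71 within groups, after group means were removed. Foxo1 and Irs1 had the lowest, r = -0.79 and rho = -0.74, with -0.73 over 22 mice and -0.73 within groups. Mice with more Foxo1 thus had less Irs1, also among mice of the same group. Within groups, r with the lymphocyte score was -0.52 for Irs1 and 0.33 for Foxo1, and with the adipocyte score -0.38 and 0.23. With the islet, endothelial and stellate scores it lay between -0.15 and 0.10 for both genes. The part of these cell types in the pair was not tested.

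**Figure D4:**
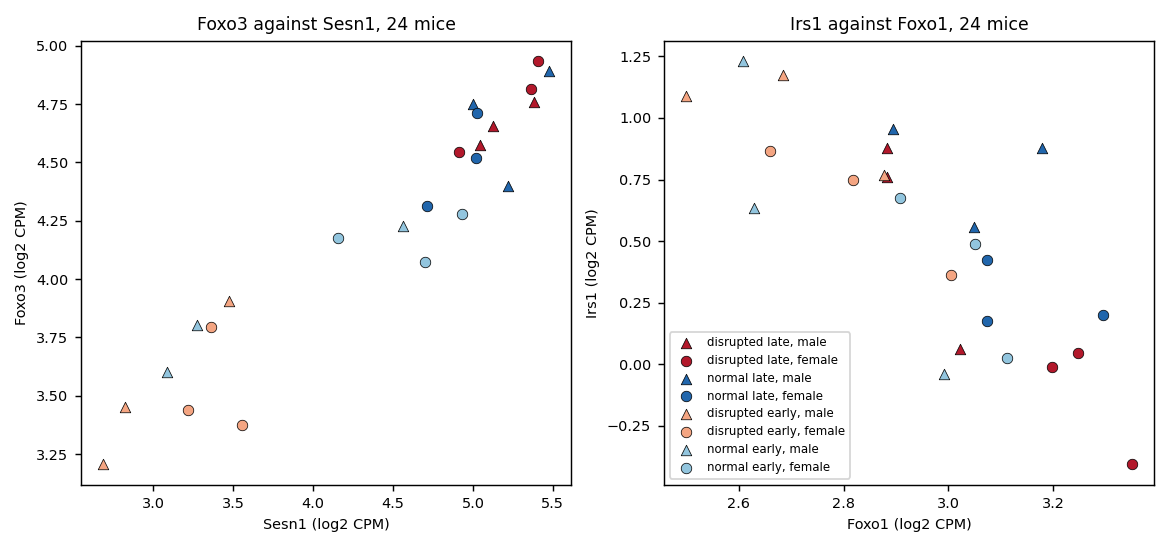
Log2 CPM of Foxo3 against Sesn1 and of Irs1 against Foxo1 in each of 24 mice; colours give condition and time, triangles males and circles females. Foxo3 climbs with Sesn1 (r = 0.95), with disrupted early mice at the low end of both, and Irs1 declines with Foxo1 (r = -0.79).

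Genes of the whole table with a pattern most like each called member were found by the same r over 24 mice. For Sesn1, among 8344 genes compared, they were Glul, the glutamine synthetase gene (0.96), Klf15, a transcription factor of fasting and amino acid breakdown (0.96), and Gucd1 (0.96). For Foxo3 they were Sesn1 (0.95), Klf15 (0.94) and Gucd1 (0.93). Within groups, r with Sesn1 was 0.88 for Glul and 0.83 for both Klf15 and Gucd1. For Igf1r the nearest were Pabpc4, a poly(A)-binding protein gene (0.86), Sorbs3 (0.86) and Retreg1 (0.82), and for Foxo1 they were Upp2, a uridine phosphorylase gene (0.85), Plpp3 (0.84) and Fam110c (0.83). Irs2 was nearest to Tob2 (0.77), Hnrnpdl (0.75) and Mafk (0.75), and Irs1, among 8345 genes, to Pebp1 (0.79), Slc16a5 (0.77) and Eef1akmt3 (0.76). Within groups several of these were far lower, at 0.30 for Irs2 with Mafk, 0.38 for Irs1 with Slc16a5, 0.46 for Foxo1 with Upp2 and 0.48 for Irs2 with Tob2. Over the 24 mice, the values for Irs1 and Irs2 were lower than those for Sesn1 and Foxo3, and so were the counts of these genes.

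Other genes of the pathway were read in 7 lists of 118 genes, of which 112 had counts high enough for testing. At the early time point 1 was higher and 6 were lower in disrupted pancreas, together 6.25% of those tested, against the 4.56% of all genes. Klf15 averaged 23.3 ± 3.08 CPM in disrupted early and 39.7 ± 7.57 CPM in normal early mice (log2 fold change -0.76 ± 0.10, adjusted p = 8.67e-05). Igfbp3, which binds insulin-like growth factors, averaged 7.51 ± 0.539 CPM in disrupted early and 10.2 ± 1.11 CPM in normal early mice (-0.44 ± 0.07, adjusted p = 0.000441). Both were, like Sesn1, lower in disrupted pancreas. Trib1, encoding a pseudokinase, was lower by a log2 fold change of -1.004 ± 0.20 (adjusted p = 0.00664) and Sgk1, a kinase that phosphorylates FOXO3, by -0.75 ± 0.20 (adjusted p = 0.0393). Rptor, the raptor subunit of mTOR complex 1, stood at -0.26 ± 0.07 (adjusted p = 0.0255) and Lamtor3, of the complex that anchors it to lysosomes, at -0.29 ± 0.08 (adjusted p = 0.027). Cdkn1a, the cell cycle inhibitor p21 and a target of p53 as well as FOXO, was the 1 higher gene, with 6.98 ± 2.93 CPM in disrupted early and 2.13 ± 0.702 CPM in normal early mice (1.71 ± 0.38, adjusted p = 0.0152).

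Within the FOXO target list, 1 of 20 tested genes was thus higher and 2 were lower early, so its members did not move one way, and its median log2 fold change was 0.07. The called share of this short list was 15%, against 4.56% of all genes. The lists of receptor adaptors and of PI3K to AKT had no call early, of 9 and 17 genes tested. With 4.56% of all genes called, lists this short cannot show a lack of calls. DESeq2 called 11 pathway genes early, against 7 with edgeR, while 4 were called without normal early female 1, without disrupted early male 1 or with the late mice left out of the fit, 3 with the marker scores as covariates and 5 without the lymphocyte-rich mice. At the late time point none of the 112 was called with edgeR and 1 with DESeq2, with 15 at an unadjusted p under 0.05. Of all 14000 genes, 1.35% were called with edgeR and 2050 had an unadjusted p under 0.05. Leaving out normal late male 2 gave 2 calls, and leaving out normal late female 1 or disrupted late male 3 gave 1.

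**Figure D5:**
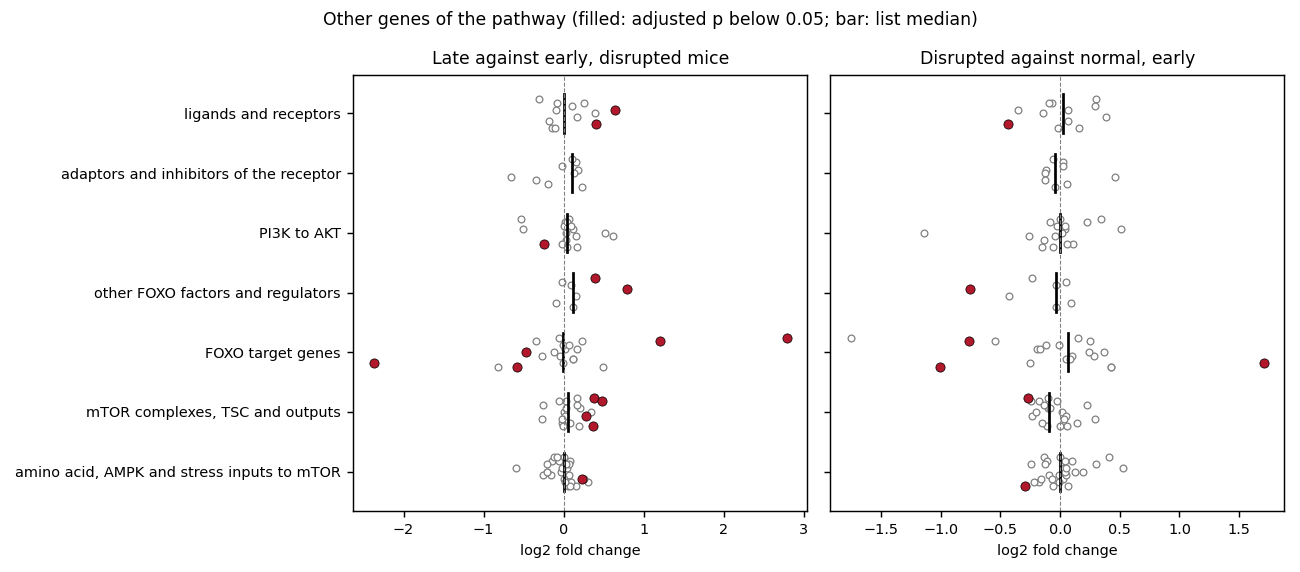
Log2 fold change (horizontal axis) of each tested gene in the 7 pathway lists (vertical axis) for late against early disrupted mice and for disrupted against normal early mice; filled points have an adjusted p below 0.05 and bars are list medians. List medians lie near 0 in both panels, and the filled points of the FOXO target list lie on both sides.

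In disrupted mice, 11 pathway genes were higher and 4 lower late than early, together 13.4% of those tested, a share near the 13.9% of all genes. The 11 were Klf15, Pdk4, Sgk1, Sirt1, Igfbp3, Insrr, Ulk1, Rptor, Akt1s1, Eif4ebp1 and Stk11, and the 4 were Cdkn1a, Sesn3, Bcl2l11 and Gsk3b. Klf15 averaged 53.8 ± 4.77 CPM in disrupted late and 23.3 ± 3.08 CPM in disrupted early mice (1.20 ± 0.10, adjusted p = 6.65e-08). Pdk4, which slows glucose oxidation in fasting, averaged 2.98 ± 2.02 CPM in disrupted late and 0.393 ± 0.218 CPM in disrupted early mice (2.79 ± 0.61, adjusted p = 0.00553). Sesn3, a sestrin like Sesn1 and a FOXO target, was lower late, with 3.89 ± 0.353 CPM in disrupted late and 5.38 ± 0.859 CPM in disrupted early mice (-0.47 ± 0.10, adjusted p = 0.0019). Of the 20 genes of mTOR complexes and outputs, 4 were higher and none lower, or 20% against the 13.9% of all genes. The most changed were Ulk1, a kinase that starts autophagy (0.48 ± 0.07, adjusted p = 6.33e-05), and Rptor (0.37 ± 0.07, adjusted p = 0.000484). Of the 20 FOXO target genes tested, 2 were higher and 3 lower, or 25%. Both lists are short, so these shares are only descriptions. Cdkn1a averaged 1.35 ± 0.329 CPM in disrupted late and 6.98 ± 2.93 CPM in disrupted early mice (-2.37 ± 0.40, adjusted p = 0.000722).

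The effect of disruption differed between the time points for 6 of the 112 genes, 5.36%, near the 4.77% of all genes. It was higher late for Klf15 (0.79 ± 0.14, adjusted p = 0.00182), Igfbp3 (0.56 ± 0.10, adjusted p = 0.000988) and Rptor (0.34 ± 0.10, adjusted p = 0.0433). It was lower late for Cdkn1a (-3.10 ± 0.57, adjusted p = 0.00342), Fbxo32 (-0.74 ± 0.19, adjusted p = 0.0203) and Bcl2l11 (-0.77 ± 0.21, adjusted p = 0.0283). Without disrupted early male 3 this count was 3. In normal mice Fbxo32, the atrogin-1 gene, and Ulk1 were higher late than early, at 0.62 ± 0.14 (adjusted p = 0.0261) and 0.30 ± 0.07 (adjusted p = 0.0468). These 2 were 1.79% of the 112 genes, against 0.843% of all genes. This count of 2 ran from 0 to 4 when mice were left out, with 4 without normal early male 3, and none was called without normal early male 1 or 2, normal early female 1 or 3, normal late male 3 or normal late female 3. It was 1 without normal early female 2, normal late female 1, disrupted early male 1, disrupted early female 2 or 3, disrupted late male 2 or 3, or disrupted late female 2.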

How the data were processed

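RNA of whole pancreas was measured by RNA-seq in 24 mice. The deposited table holds RSEM expected counts, estimated counts that need not be whole, which the authors made per gene and mouse without normalization. The submitters' processing notes name the build GRCm38.p5 and the tools edgeR 3.28.0, RSEM, STAR 2.5.3a and bcl2fastq 2.20; no source used here names the annotation or the strand setting. Symbols and coordinates came from a GENCODE annotation of GRCm38, which matched 51633 of 51912 genes, and promoters from RefSeq.

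Expected counts were rounded, which altered 7.97% of values by at most 0.5, and genes with low counts were removed with filterByExpr, leaving 14000. Tests used edgeR 4.0.16 (R 4.3.3) and its quasi-likelihood method, robust,, with TMM scaling and 8 group means over 24 mice, weighting the sexes equally. Adjusted p values are Benjamini-Hochberg values over all genes tested, called below 0.05. Levels are CPM over the library size of the genes tested times its TMM factor, which ran from 0.943 to 1.12. Log2 CPM uses a prior count of 2. The common biological coefficient of variation was 0.130. DESeq2 1.42.0, other scalings, no filter, fewer samples, marker scores (mean log2 CPM of the markers), a replicate block and leaving out mice were alternatives.

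All 9 genes were reported in every comparison, with the 3 genes of mean log2 CPM of at least 1 most correlated with each called one, and from each of the 7 lists up to 4 genes called in a condition effect; other called list genes were named after their values were seen. The members and lists were chosen with earlier results of these data known. The design text speaks of separate mice, so replicates were treated as animals. Same-numbered mice of different groups did not deviate together (84 pairs, r -0.21 to 0.40, median 0.01), so the numbers were not taken as pairs. Replicates differed by more than sampling noise in all 24 pairs within groups (chi-square per degree of freedom 9.02 to 58.9).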

Additional observations from a re-analysis of the deposited data

Results flagged for a closer look

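Irs2 in normal early mice had 1 mouse far from the others. Normal early male 1 stood at 5.43 CPM and the next mouse at 3.17 CPM, a gap of 0.758 of the group's whole range, above the critical value of Dixon's test for 6 mice. Of 36 groups of values examined this was the 1 beyond that value, and chance alone passes it in about 1 of 20.

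The effect of disruption on Sesn1 differed between the time points, by 1.13 on the log2 scale (late minus early, adjusted p = 0.0499). It was 0.13 ± 0.22 late and -0.999 ± 0.230 early. This call lay at the threshold: it was kept in 8 of 31 alternative fits and lost in 23.

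The late effect of disruption on Ddit4 ran in opposite directions in males and females, and the difference was -3.13 on the log2 scale (adjusted p = 0.0927). Every disrupted late male lay below every normal late male, and every disrupted late female above every normal late female. This order was itself the rule by which Ddit4 was flagged. Males were taken on day 9 and females on day 8, so sex and day cannot be told apart.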

How the results depend on the processing

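Over 1631 alternatives to 49 single-gene results, 1478 kept direction and side of the threshold, 82 lost a call, 28 gained one and 43 changed sign. The cause of these changes was not tested. The 3 early calls became 1 when low counts were not filtered out, 0 with the groups compared alone, with marker scores as covariates or without the lymphocyte-rich mice (an alternative chosen after seeing the data), and 0 to 3 over mice left out. The 1 call for late minus early became 0 with upper quartile scaling or without the lymphocyte-rich mice, 3 with DESeq2, 2 with the replicate block, and 0 to 2 over mice left out; it stayed 1 without the filter and with covariates, but there the gene was Igf1r in place of Sesn1. The 5 calls for late against early disrupted mice became 6 with DESeq2 or with the groups compared alone, where Irs2 was added, and 4 without the lymphocyte-rich mice, where Irs1 was lost, and ran from 4 to 6 over mice left out. The 1 call in normal mice became 3 with DESeq2 and 0 without the filter, with the groups compared alone, with covariates or without the lymphocyte-rich mice, and 0 to 2 over mice left out. Males minus females late gave 0, 1 with DESeq2 and 0 to 1 over mice left out, and males against females early 0 to 1. The replicate block changed no other count of members called.

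These log2 values changed sign. For disrupted against normal late, Foxo1, at 0.00, became -0.0015 with upper quartile scaling, -0.00023 with the replicate block, -0.065 with covariates, -0.026 without the lymphocyte-rich mice, -0.12 in males, and -0.035 to 0.039 over mice left out; in males Foxo3 became -0.029 and Sesn1 -0.051; in females Insr became 0.079 and Ddit4, at -0.68, became 0.89; Insr ran from -0.060 to 0.021 over mice left out. Early, Ddit4 became -0.15 in females and ran from -0.014 to 0.39 over mice left out. Late against early disrupted, Insr became -0.0077 with upper quartile scaling, -0.011 without the lymphocyte-rich mice and -0.0069 to 0.078 over mice left out, Pik3r1 -0.066 in females and Ddit4, at 0.33, -0.29 in males. Late against early normal, Igf1r became -0.032, Pik3r1 -0.012 and Ddit4, at 1.17, -0.094 in females, and Insr 0.00034 and Irs1 0.11 in males; Irs1 ran from -0.17 to 0.16 over mice left out.

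Counts over all genes moved by over 1.5 times in these cases, first for settings and then for single mice left out. Early, 639 became 256 with covariates and 406 without the lymphocyte-rich mice. Late, 189 became 333 without the filter and 100 without those mice. Late against early, 1948 became 1283 without those mice in disrupted mice, and in normal mice 118 became 211 without the filter, 249 with DESeq2 and 63 with covariates. Males against females early, 125 became 301 without the filter, 258 with DESeq2 and 62 without those mice. Males minus females late, 4 became 16, 32, 1, 2 and 2 without the filter, with DESeq2, with the groups compared alone, with the block and with covariates. Upper quartile scaling turned 1031 higher and 917 lower genes in disrupted mice late against early into 744 and 1246, and 65 and 53 in normal mice into 49 and 62; it changed the direction of no called member. Late, 189 became 71 without disrupted late female 3, 96 without disrupted late male 1, 122 without disrupted late male 3 and 114 without normal late male 3 or normal late female 2. In normal mice late against early, 118 became 38 without normal late male 3, 58 and 60 without normal late females 1 and 3, 39 and 45 without normal early males 1 and 2, and 60, 52 and 71 without normal early females 1, 2 and 3. Males against females early, 125 became 55, 197 and 220 without disrupted early male 1, male 3 and female 3, 69 and 73 without normal early males 1 and 2, and 64 and 73 without normal early females 2 and 3. Males minus females late, 4 became 44 without normal late male 2, 2 without normal late male 1, normal late female 1, disrupted late female 3 or normal early female 1, 1 without disrupted late female 2, and 0 without normal late male 3, normal late female 2 or disrupted late male 1 or 3.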
